A study of Mus musculus with 6 samples.

Results

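Neuronal nicotinic acetylcholine receptor subunits were followed in mouse Neuro2a neuroblastoma cells after RNA interference against the transcription factors USF1 and USF2. Of 6 subunit genes listed (Chrna3, Chrna5, Chrnb4, Chrna4, Chrna7 and Chrnb2), 5 were measured among 16583 genes that the platform annotation names by a single symbol. The rule that selects them uses the gene symbol and no measured value, but the subunits were chosen with earlier results of these data known. Each of the 5 had 1 transcript cluster, the array's probe set for a gene. Chrna5 had no cluster under a single symbol in the annotation used and is not analysed here. The knockdown group, USFKD, held 3 arrays of cells transfected with miR RNAi plasmids for USF1 and USF2, and the Control group held 3 arrays of cells that received the empty vector. The plasmids came from a miR RNAi vector system that carries the fluorescent protein EmGFP and were introduced by lipofection. The labels do not say whether transfected cells were selected or how long after transfection RNA was taken. The replicates are called biological in the labels, but whether they were separate cultures is not stated, so p-values cover only the variation among these arrays, part or all of which may be technical. The array was the Affymetrix Mouse Gene 1.0 ST.

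Nicotinic acetylcholine receptors are pentamers of subunits around a cation channel that opens when acetylcholine or nicotine binds. Alpha3 and beta4 (Chrna3 and Chrnb4) form the main receptor of autonomic ganglia and adrenal chromaffin cells, often with the accessory alpha5 subunit (Chrna5). Alpha4 and beta2 (Chrna4 and Chrnb2) form the most abundant high-affinity nicotine receptor of the brain, and alpha7 (Chrna7) forms a channel on its own with high calcium permeability. Neuro2a cells derive from a neural crest tumour, the lineage that also gives rise to sympathetic neurons. The USF proteins pair through a helix-loop-helix and a leucine zipper and bind E-boxes, preferring the core CACGTG.

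In USFKD cells Chrna7 and Chrna3 had lower values and Chrnb4 higher values than in Control cells, and Chrna4 and Chrnb2 lay near 0 change. In limma, fitted to all 16583 genes with Benjamini-Hochberg adjustment, 0 of the 5 subunits passed an adjusted p of 0.05. The lowest adjusted p among them was 0.996, and 0.00603% of all genes (1 gene) passed. At an unadjusted p under 0.05 there were 3 of the 5, Chrna7, Chrna3 and Chrnb4, against 4.25% of all genes (705 genes). Of the 5 subunits 1 was higher at that p and 2 were lower, where 1.6% of all genes were higher (266) and 2.65% lower (439). The same 3 genes had no overlap between the USFKD and Control arrays, which held for 10.3% of all genes. The 4.33% with USFKD above Control were 718 genes, and the 5.95% with USFKD below Control were 987 genes. Since the subunits were chosen with earlier results of these data known, these shares describe the values and do not test the set. The differences of the subunits were small, between 0.885-fold and 1.13-fold. The median change of the 5 subunits was -0.012 on the log2 scale, beside -0.00067 for all genes, and the median size of the change regardless of sign was 0.13, beside 0.040.

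All values below are log2 signals relative to the median of the same cluster over the 6 arrays, so they compare arrays for a gene and hold no level. Because of this centring the middle pair of the 6 values are mirror images around 0. The size of the rounding step in the deposited numbers still tells whether a cluster lay at 8 to 16 on the log2 scale before centring (the brighter class, 7320 genes) or at 4 to 8 (the dimmer class, 9015 genes). Chrna3, Chrna7, Chrna4 and Chrnb2 were in the brighter class and Chrnb4 was in the dimmer class. This class is a coarse range and was not used to compare subunits in amount.

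Both RNAi targets were lower in every USFKD array than in every Control array. Usf1 had a change of -0.55 ± 0.07 (SE) and Usf2 of -0.38 ± 0.06 (SE), each with n = 3 arrays per group, with limma adjusted p of 0.320 and 0.348 over all genes. The arrays were unequal in spread. The standard deviation over all clusters was 0.159 on USFKD array 2 and between 0.0531 and 0.0780 on the other 5. Against the Control mean, USFKD array 2 had a median of 0.09 for dimmer genes and of -0.04 for brighter genes, while USFKD arrays 1 and 3 had medians of -0.0068 and -0.03 for dimmer genes and of -0.00032 and 0.0046 for brighter genes. Of the sympathetic and neuronal markers measured, 10 of 15 lay in the brighter class, as did 7320 of all 16583 genes. Phox2a, Hand2, Gata3, Chga and Prph were among the 10. Of the glial, fibroblast, and macrophage and blood markers, 0 of 7, 0 of 7 and 0 of 6 lay in the brighter class. Of the endothelial and epithelial markers 2 of 8 did, Kdr and Cdh1. Of the enzymes of catecholamine synthesis in the list, Th and Dbh lay in the dimmer class and Ddc in the brighter class. The neuronal markers Nefl, Nefm and Syp also lay in the dimmer class. In RNA of a whole culture, fewer cells that express a gene and less RNA per cell cannot be told apart.

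Chrna3, Chrna5 and Chrnb4 lie next to each other on mouse chromosome 9 in the RefSeq annotation of assembly GRCm38.p6, in the order Chrna5, Chrna3, Chrnb4. Chrna5 is on the plus strand, Chrna3 and Chrnb4 are on the minus strand, and the annotated ends of Chrna5 and Chrna3 overlap. The promoter windows of Chrna3, Chrnb4 and Chrna7 are shown because these 3 genes had separate groups and USF binds E-boxes. Each window runs from 250 bases before to 50 bases after the annotated start and is printed 5′ to 3′ on the gene's strand, from RefSeq GRCm38.p6, with every CANNTG word, the general E-box, in capitals. The window of Chrna3 is chr9:55026513-55026812, that of Chrnb4 is chr9:55048495-55048794 and that of Chrna7 is chr7:63212477-63212776, all on the minus strand.
Chrna3: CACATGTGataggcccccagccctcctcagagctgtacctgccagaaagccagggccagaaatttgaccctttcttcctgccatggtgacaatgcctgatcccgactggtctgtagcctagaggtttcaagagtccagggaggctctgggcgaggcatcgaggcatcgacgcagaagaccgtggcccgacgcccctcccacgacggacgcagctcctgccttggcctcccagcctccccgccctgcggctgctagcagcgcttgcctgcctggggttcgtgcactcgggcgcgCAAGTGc
Chrnb4: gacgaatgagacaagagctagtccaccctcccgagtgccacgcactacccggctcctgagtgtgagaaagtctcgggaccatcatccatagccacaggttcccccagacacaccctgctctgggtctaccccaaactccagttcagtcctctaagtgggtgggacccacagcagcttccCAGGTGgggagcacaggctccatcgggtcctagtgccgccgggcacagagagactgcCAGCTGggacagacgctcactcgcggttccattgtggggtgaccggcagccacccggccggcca
Chrna7: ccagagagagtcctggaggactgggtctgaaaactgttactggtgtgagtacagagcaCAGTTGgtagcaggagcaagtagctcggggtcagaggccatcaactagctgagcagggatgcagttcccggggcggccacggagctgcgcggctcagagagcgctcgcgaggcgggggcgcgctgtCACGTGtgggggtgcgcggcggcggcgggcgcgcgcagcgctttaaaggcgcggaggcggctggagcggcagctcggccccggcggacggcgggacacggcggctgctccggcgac

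The window of Chrna7 held 1 CACGTG word, which starts 66 bases before the annotated start, and 1 other E-box, CAGTTG. With its flanks the CACGTG word is part of GTCACGTG, the reverse complement of CACGTGAC. The Chrna3 window held 3 CANNTG words (CACATG and CATGTG, which overlap, and CAAGTG), the Chrnb4 window 2 (CAGGTG and CAGCTG), and neither held CACGTG. Windows of the other subunits held 2 CANNTG words for Chrnb2, 0 for Chrna4 and 2 in each of the 2 windows of Chrna5, with 0 CACGTG words in all of them. All 6 listed subunits had a window, 7 windows in total. Searched on both strands, CACGTG was in 7.15% of all 32851 RefSeq windows, CACGTGAC in 2.25% and CANNTG, which includes both, in 72.3%. A word is a match of letters and no measure of binding. Among measured genes, 518 had CACGTGAC in a window, Chrna7 among them, and 10.2% of these were at an unadjusted limma p under 0.05 (18 higher and 35 lower). The share was 6.93% of the 1385 genes with CACGTG and 4.52% of the 9155 genes with CANNTG, beside 4.32% of the 13071 measured genes with a window. These 4.32% were 565 genes, of which 349 were lower, so lower genes were the majority there too. Lower at that p were 6.76% of the genes with CACGTGAC and 2.67% of the 13071. The sets are nested, and the 32 higher and 64 lower genes with CACGTG include the 18 and 35 with CACGTGAC. The median change was -0.0056 for CACGTGAC, -0.0033 for CACGTG and 0.00023 for CANNTG, beside -0.0013 for the 13071. These shares were not tested against each other.

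Chrna3 (cluster 10593756), the alpha subunit of the ganglionic receptor, had -0.09, -0.03 and -0.07 on USFKD arrays 1, 2 and 3, against 0.09, 0.03 and 0.09 on Control arrays 1, 2 and 3. All USFKD arrays lay below all Control arrays, and the nearest arrays of the groups, array 2 of each, were 0.0502 apart. The mean was -0.06 ± 0.03 in USFKD cells and 0.07 ± 0.04 in Control cells (SD, n = 3 each). The change was -0.13 ± 0.04 (SE), or 0.912-fold, with a 95% interval of -0.23 to -0.03 (limma unadjusted p = 0.0167, adjusted p = 0.996). An exact permutation test over arrays (two-sided) gave p = 0.1, below which 3 against 3 arrays cannot go. The unadjusted p was 0.0668 without USFKD array 1 and 0.0614 without Control array 3.

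Chrnb4 (cluster 10593767), the beta subunit that pairs with alpha3 in ganglia, had 0.05, 0.18 and 0.0086 on USFKD arrays 1, 2 and 3, against -0.09, -0.17 and -0.0086 on Control arrays 1, 2 and 3. The USFKD arrays lay above the Control arrays, but the lowest USFKD array and the highest Control array, array 3 of each, were 0.0171 apart. The mean was 0.08 ± 0.09 in USFKD cells and -0.09 ± 0.08 in Control cells (SD, n = 3 each). The change was 0.17 ± 0.06 (SE), or 1.13-fold, with a 95% interval of 0.02 to 0.32 (limma unadjusted p = 0.0277, adjusted p = 0.996). The same exact permutation test gave p = 0.1. The highest value was that of USFKD array 2, the array on which dimmer genes as a class had a median of 0.09 above the Control mean. The part of this shift in the result was not tested. Without that array the change was 0.12 ± 0.05 (SE, limma unadjusted p = 0.0549). Without Control array 1 or 2 it was 0.17 and 0.13, with unadjusted p of 0.0688 and 0.104.

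**Figure D1:**
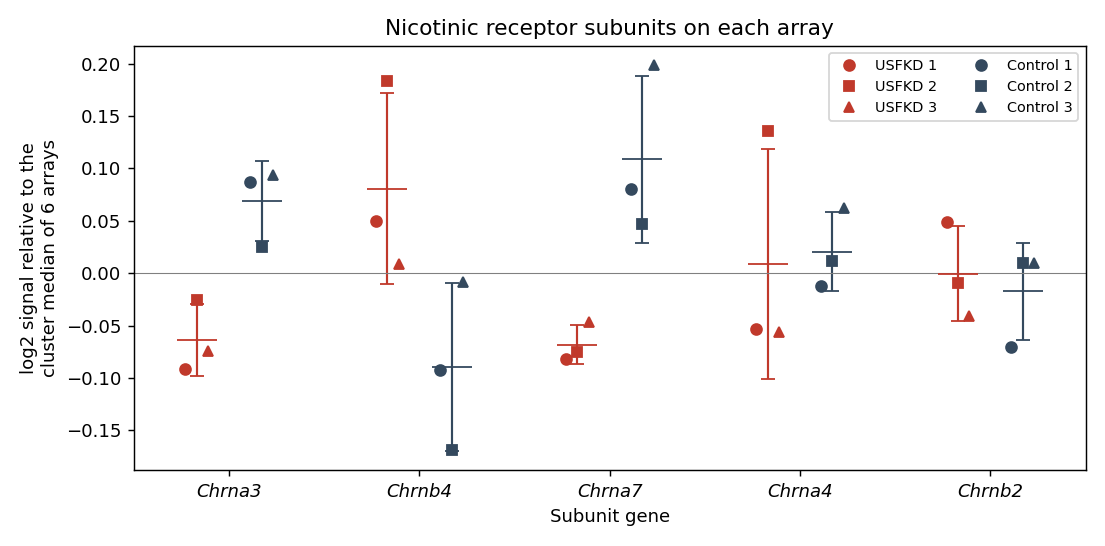
Log2 signal of the 5 measured subunits on each array, relative to the cluster's median over 6 arrays, with USFKD in red and Control in dark blue and a symbol for each array number. Bars are mean ± SD of 3 arrays. The groups are separate for Chrna3, Chrnb4 and Chrna7 and overlap for Chrna4 and Chrnb2, and USFKD array 2 is the highest value of Chrnb4 and Chrna4.

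The neighbours Chrna3 and Chrnb4 thus had changes of opposite sign. The log2 value of Chrna3 minus that of Chrnb4 was -0.14, -0.21 and -0.08 on USFKD arrays 1, 2 and 3, against 0.18, 0.19 and 0.10 on Control arrays 1, 2 and 3. The mean was -0.14 ± 0.06 in USFKD cells and 0.16 ± 0.05 in Control cells (SD, n = 3 each), a difference of -0.30. Since each gene alone separates the groups, in opposite directions, the separation of this difference adds nothing. The exact permutation test over arrays (two-sided) gave p = 0.1 for the difference, a value fixed by that separation, so it is no further evidence. Chrna3 is in the brighter class and Chrnb4 in the dimmer one, and on USFKD array 2, where the difference was lowest, these classes had medians of -0.04 and 0.09 against the Control mean. The part of this shift in the difference was not tested. Around their group means the 2 genes moved together from array to array (Pearson r = 0.881 over 6 arrays). USFKD array 2 was the highest of its group and Control array 2 the lowest of its group for both genes. Around group means Chrna4, which lies on chromosome 2, had r = 0.842 with Chrnb4 and 0.68 with Chrna3. The lowest such r between subunits was -0.424, for Chrna3 and Chrnb2. These correlations are descriptions of 6 arrays that share libraries and normalization.

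**Figure D2:**
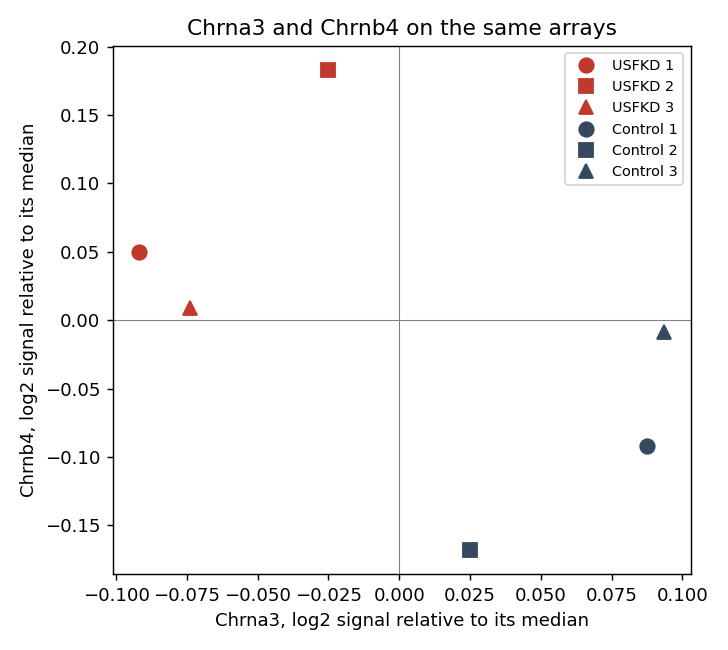
Log2 signal of Chrna3 (x axis) and Chrnb4 (y axis) on the same 6 arrays, each relative to its own median, with USFKD in red and Control in dark blue. USFKD arrays lie at upper left and Control arrays at lower right, and in each group the array with the highest Chrna3 value also has the highest Chrnb4 value.

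Chrna7 (cluster 10564272), the subunit of the calcium-permeable homomeric receptor, had -0.08, -0.08 and -0.05 on USFKD arrays 1, 2 and 3, against 0.08, 0.05 and 0.20 on Control arrays 1, 2 and 3. All USFKD arrays lay below all Control arrays with 0.0936 between the nearest, and Control array 3 was the highest. The mean was -0.07 ± 0.02 in USFKD cells and 0.11 ± 0.08 in Control cells (SD, n = 3 each). The change was -0.18 ± 0.05 (SE), or 0.885-fold, with a 95% interval of -0.29 to -0.06 (limma unadjusted p = 0.00884, adjusted p = 0.996). The same exact permutation test gave p = 0.1. By limma p Chrna7 ranked 137 of 16583 genes, Chrna3 ranked 242 and Chrnb4 ranked 385. With any 1 array left out the change of Chrna7 lay between -0.21 and -0.13 and its unadjusted p between 0.00897 and 0.0341. Among genes of the brighter class, to which Chrna7 and Chrna3 belong, 3.52% were lower at an unadjusted p under 0.05, and among genes of the dimmer class, to which Chrnb4 belongs, 1.76% were higher.

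Chrna4 (cluster 10490559), the alpha subunit of the main brain receptor, had -0.05, 0.14 and -0.06 on USFKD arrays 1, 2 and 3, against -0.012, 0.012 and 0.06 on Control arrays 1, 2 and 3. The groups overlapped, and USFKD array 2 stood above the other 5 arrays. The change was -0.012 ± 0.061 (SE, 95% interval -0.15 to 0.13, limma unadjusted p = 0.851). Without USFKD array 2 it was -0.08 (unadjusted p = 0.120), and without USFKD array 1 or 3 or Control array 3 it was above 0.

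Chrnb2 (cluster 10499643), the beta subunit that pairs with alpha4, had 0.05, -0.0093 and -0.04 on USFKD arrays 1, 2 and 3, against -0.07, 0.0093 and 0.0093 on Control arrays 1, 2 and 3. The groups overlapped over most of their range. The change was 0.017 ± 0.047 (SE, 95% interval -0.09 to 0.12, limma unadjusted p = 0.726), and it was below 0 without USFKD array 1 or Control array 1.

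**Figure D3:**
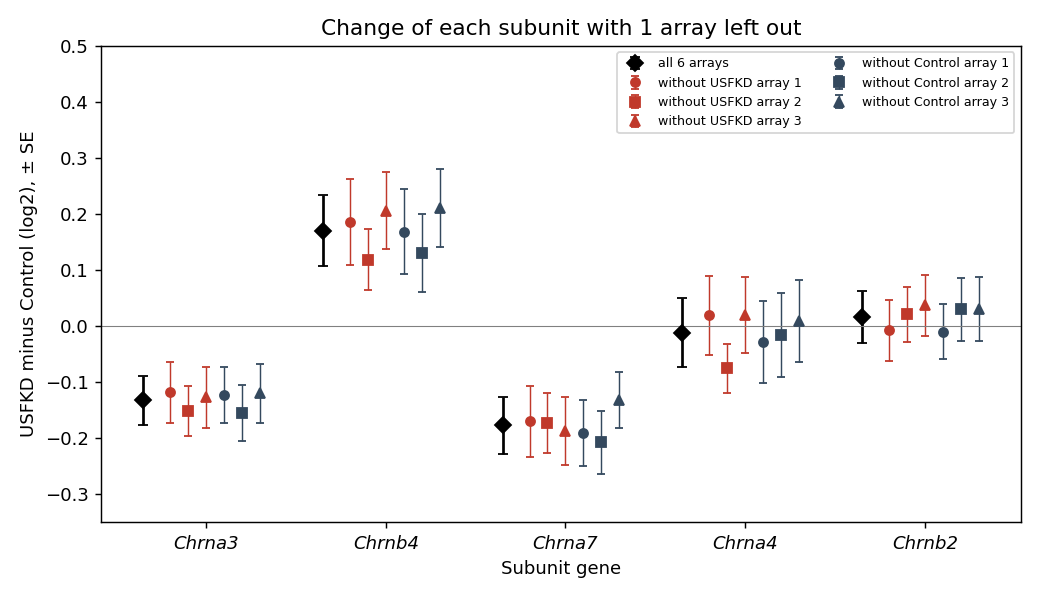
USFKD minus Control on the log2 scale (y axis, limma estimate ± SE) for each measured subunit with all 6 arrays (black) and with 1 array left out, a USFKD array in red or a Control array in dark blue. Chrna3 and Chrna7 stay below 0 and Chrnb4 above 0 in each of these fits, while Chrna4 and Chrnb2 cross 0.

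**Figure D4:**
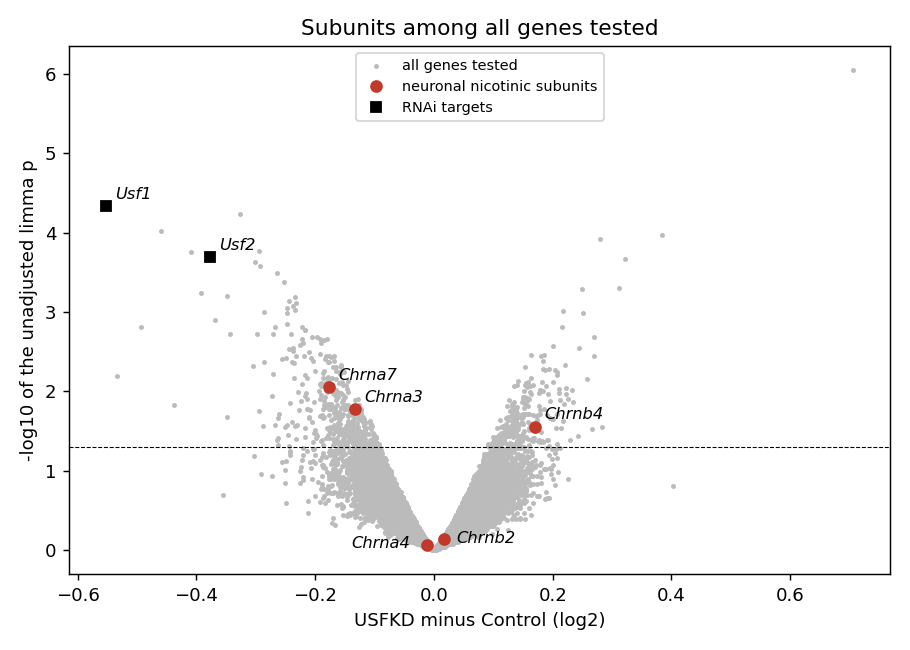
Change (x axis, USFKD minus Control, log2) and −log10 of the unadjusted limma p (y axis) of 16583 genes in grey, with the 5 subunits in red and the RNAi targets in black. The dashed line marks an unadjusted p of 0.05, which Chrna7, Chrna3 and Chrnb4 pass, as do 705 genes in all.

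The remaining nicotinic subunits, those of muscle and of the inner ear among them, had small changes. Of 10 listed, 9 were measured, all but Chrna6. In limma 0 passed the adjusted threshold and 0 were at an unadjusted p under 0.05 (1 without USFKD array 2 or Control array 1). Their median change was 0.016, with a range from -0.02 for Chrne to 0.09 for Chrna1, and 1 of the 9 (Chrna10) lay in the brighter class. Chrna1, the alpha subunit of the muscle receptor, had a change of 0.09 ± 0.05 (SE, unadjusted p = 0.114). Chrnb3 had 0.0064, 0.013 and 0.015 on the USFKD arrays, against -0.05, -0.08 and -0.0064 on the Control arrays, a change of 0.06 ± 0.04 (SE, unadjusted p = 0.195). Its USFKD arrays all lay above its Control arrays, as for 4.33% of all genes.

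**Figure D5:**
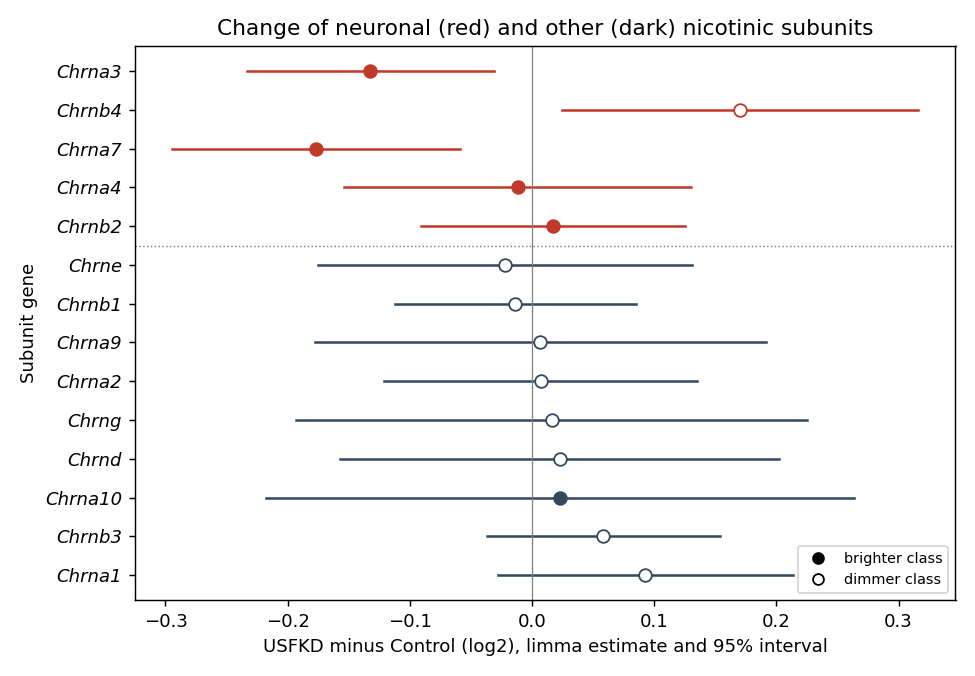
USFKD minus Control on the log2 scale (x axis), with the limma estimate and its 95% interval, for the 5 measured subunits of the set followed here (red, top) and 9 other nicotinic subunits (dark blue). Filled points are genes of the brighter class and open points of the dimmer class. The intervals of Chrna3, Chrnb4 and Chrna7 leave out 0, and those of the other 11 genes include it.

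Genes that build, place or tune nicotinic receptors showed no call. Of 21 listed (all but Lypd6 measured), 0 of 20 passed adjusted or unadjusted limma p of 0.05 (1 the unadjusted one without USFKD array 2 or Control array 1), with a median change of 0.00079. Ric3, a chaperone of the endoplasmic reticulum needed for alpha7 assembly, had a change of -0.12 ± 0.09 (SE, unadjusted p = 0.211), with -0.29 on USFKD array 2 and -0.0035 and 0.04 on USFKD arrays 1 and 3. Vsnl1, a calcium sensor that raises surface alpha4 beta2 receptors, had a change of -0.11 ± 0.05 (SE, unadjusted p = 0.0738). Tmem35a, which encodes the chaperone NACHO, had 0.05 ± 0.09 (SE) and is named outside the rule for named genes, as another chaperone of nicotinic receptors. Both Ric3 and Tmem35a lay in the dimmer class.

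Other parts of cholinergic signalling had 0 genes at an unadjusted limma p under 0.05. This held for all 5 muscarinic receptors (median change 0.03, with 1 gene at that p without any 1 of the USFKD arrays), of which Chrm2 had 0.08 ± 0.05 and Chrm5 -0.08 ± 0.07 (SE). It held for 9 measured of 11 genes of acetylcholine synthesis, transport and breakdown (median -0.011). Among these the vesicular transporter Slc18a3 had 0.12 ± 0.08 and the synthesizing enzyme Chat 0.07 ± 0.06 (SE), both in the dimmer class.

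Transcription factors known to act on the Chrna3, Chrna5 and Chrnb4 locus or on sympathetic and neuroendocrine identity also had 0 of 14 measured (of 17 listed) at an unadjusted limma p under 0.05 (1 without USFKD array 2), with a median of -0.011. Rcor1, a corepressor that works with REST, had a change of -0.08 ± 0.04 (SE, unadjusted p = 0.0687). All its USFKD arrays lay below all its Control arrays, as for 5.95% of all genes. Insm1, a zinc finger factor of neuroendocrine cells, had -0.08 ± 0.05 (SE, unadjusted p = 0.123). Sp1 and Sp3, known from rat to bind the Chrnb4 promoter, had 0.0032 ± 0.0457 and -0.02 ± 0.04 (SE), and are named outside the rule.

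Of 6 genes listed as neighbours of the cluster, 3 lie within 4 protein-coding genes of Chrna5 in mouse, namely Psma4, Hykk and Ireb2. Adamts7, Morf4l1 and Ctsh lie 286 to 288 genes away on the same chromosome and are no neighbours in mouse. Psma4, a proteasome subunit that adjoins Chrna5, had -0.02, -0.19 and -0.07 on USFKD arrays, against 0.02, 0.04 and 0.03 on Control arrays. Its groups did not overlap, as for 10.3% of all genes, and its change was -0.12 ± 0.05 (SE, limma unadjusted p = 0.0480, adjusted p = 0.996). The list had 0 genes at an unadjusted p under 0.05 with quantile normalization, median centring, the replicate block or array weights, and without USFKD array 2 or 3 or any 1 of the Control arrays. Hykk and Ireb2 had -0.02 ± 0.07 and -0.05 ± 0.05 (SE).

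Among other receptors of the same Cys-loop superfamily, 13 measured of 27 listed, 2 were at an unadjusted limma p under 0.05, beside 4.25% of all genes, and 0 passed the adjusted threshold. The 2 became 0 without Control array 3 and 1 without USFKD array 1 or 2, without Control array 1 or with a robust prior. Htr3a, the serotonin-gated channel subunit, had -0.06, -0.16 and -0.02 on USFKD arrays, against 0.08, 0.02 and 0.17 on Control arrays, a change of -0.17 ± 0.06 (SE, unadjusted p = 0.0187). Gabra3, a GABA receptor subunit, had a change of 0.13 ± 0.06 (SE, unadjusted p = 0.0482) with overlapping groups. Both lay in the dimmer class.

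Of the sympathetic and neuronal markers, 15 measured of 16 listed, 2 were at an unadjusted limma p under 0.05, both lower, beside 4.25% of all genes, and the list's median change was 0.017. The 2 became 3 without USFKD array 2 or 3 and 1 without Control array 2 or 3. Dbh, which makes noradrenaline in the cells that also use the alpha3 beta4 receptor, had -0.12, -0.22 and -0.07 on USFKD arrays, against 0.12, 0.07 and 0.13 on Control arrays, a change of -0.25 ± 0.05 (SE, unadjusted p = 0.00142, adjusted p = 0.759). Chgb, a granin of secretory vesicles, had -0.15 ± 0.05 (SE, unadjusted p = 0.0280). Th, the first enzyme of the same pathway as Dbh, had -0.08 ± 0.06 (SE, unadjusted p = 0.219) and is named outside the rule.

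Markers of other cell types had 0 genes at an unadjusted limma p under 0.05 with all 6 arrays. Without USFKD array 3 there was 1 each among the fibroblast, the macrophage and blood, and the endothelial and epithelial markers, without USFKD array 1 there was 1 fibroblast marker, and without Control array 1 there was 1 macrophage and blood marker. The medians of the change were above 0, at 0.08 for glia, 0.07 for fibroblasts, 0.06 for macrophages and blood and 0.03 for endothelium and epithelium. On USFKD array 2 the list medians of the values were 0.14, 0.24, 0.07 and 0.08, against a range of -0.09 to 0.05 on USFKD arrays 1 and 3 and of -0.07 to 0.04 on the Control arrays. Most of these markers are in the dimmer class, whose genes as a whole had a median of 0.08 on USFKD array 2. For 229 olfactory receptor genes that median was 0.144. The median change was 0.012 for the dimmer class and 0.032 for the olfactory receptor genes. By limma p the leading markers of each list were Aqp4 (0.09 ± 0.05, SE) and Erbb3 (0.08 ± 0.05), Pdgfrb (0.11 ± 0.06) and Dcn (-0.07 ± 0.06), Cd14 (0.08 ± 0.05) and Ptprc (0.06 ± 0.04), and Epcam (0.07 ± 0.05) and Kdr (0.11 ± 0.08). The part of these markers in the values of the subunits was not tested.

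The genes whose values over the 6 arrays were most like those of each subunit, by Pearson r among 16582 other genes, give a measure of how common such patterns are. For Chrna7 they were Pex16 (r = 0.998) and Pfn1 (0.994), with changes of only -0.04 and -0.03, and 43 genes (0.259%) had r above 0.95. For Chrna3 they were Olfr555 (0.988) and Gpr176 (0.986), with 28 genes above 0.95. For Chrnb4 they were Ccm2 (0.990) and Slc39a4 (0.989), with 52 genes. For Chrna4 they were Fam199x (0.996) and Shank2 (0.995), with 159 genes, and for Chrnb2 they were Cpsf3 (0.984) and Kctd15 (0.983), with 12 genes. Between subunits the highest r over the 6 arrays was 0.904, for Chrna3 and Chrna7, and the lowest was -0.525, for Chrnb4 and Chrna7. With 6 arrays these coefficients only describe the values.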

How the data were processed

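The table that the authors deposited has 22891 transcript clusters and 6 arrays, with values read here as log2 relative to the cluster's median (the largest absolute median was 5e-07). The log2 scale is not stated and was taken from the rounding step of the numbers. RNA was purified with an RNeasy kit, then amplified and biotin-labelled with Ambion and Affymetrix whole-transcript kits, per the labels' protocols. How background correction, normalization and filtering were done is not given in the sources used here. In the labels replicates share only a number, and whether same-numbered arrays were prepared together is not stated. The deviations of same-numbered arrays correlated at 0.0031, 0.08 and 0.04, and those of differently numbered arrays at -0.09 to 0.05. Such values from 3 arrays per group cannot decide whether the arrays were paired.

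Clusters with 1 symbol in the platform annotation (18087, beside 1145 with several and 3659 unnamed) were averaged to 16583 genes. Changes came from limma 3.58.1 (lmFit, eBayes) under R 4.3.3 (4 residual and 3.79 prior degrees of freedom), adjusted by Benjamini-Hochberg at 0.05. Single genes were also compared by exact permutation over arrays. The number of arrays limits precision (median SE 0.0561). The fit was tested on simulated data, where it recovered 20.7% of genes given a log2 change of 0.25, 86% at 0.5 and 98.3% at 1. Changes of a size between 0 and 0.25, where those of the subunits lie, were not simulated. Words in promoters and figures used Python 3.11.15 and matplotlib 3.10.9. A planned comparison of protein sequences was not made.

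The subunits and lists were chosen with earlier results of these data known. The rule for named genes took the 5 subunits, Usf1 and Usf2, list genes at an unadjusted p under 0.05 (or else the 2 with the smallest p) and the 2 genes most like each subunit.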

Additional observations from a re-analysis of the deposited data

How the results depend on the processing

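The changes of Chrna3, Chrnb4 and Chrna7 kept their sign in all alternatives run (12, 11 and 12), between -0.16 and -0.12, 0.12 and 0.21, and -0.21 and -0.13. Their unadjusted limma p was under 0.05 in 10 of 12, 7 of 11 and 12 of 12. With array weights Chrna3 (-0.16, limma adjusted p = 0.0165) and Chrna7 (-0.20, 0.0163) passed, as 2 of the 5 subunits, along with Usf1 (-0.62) and Usf2 (-0.46) and 1111 genes in all, with 4356 genes at an unadjusted p under 0.05. The weights were 33, 0.136 and 0.441 on USFKD arrays 1, 2 and 3, from an estimate that did not fully converge, so the USFKD mean was nearly that of 1 array. The median change of the subunits was -0.081 with array weights and -0.072 among brighter genes, where Chrnb4 is left out by construction, and with 1 array left out it lay between -0.075 (without USFKD array 2) and 0.020. With the replicate block the call over all genes went to 0 (636 genes at an unadjusted p under 0.05) and Chrnb4 had an unadjusted limma p of 0.0531. Whether the replicate numbers pair the arrays is not stated. With 1 array left out Chrna4 lay between -0.075 and 0.020 and Chrnb2 between -0.0096 and 0.037. Chrna4 turned to 0.019, 0.020 and 0.0087 without USFKD array 1, USFKD array 3 and Control array 3, and Chrnb2 to -0.0078 and -0.0096 without USFKD array 1 and Control array 1. With 1 array left out the count of genes past the threshold lay between 0 and 1 and that at an unadjusted p under 0.05 between 369 and 1248. Without USFKD arrays 2 and 3 it was 1248 and 1228, and without Control arrays 2 and 3 it was 433 and 369. The cause was not tested. Quantile normalization, median centring, a robust prior and single clusters kept 0 subunits past the threshold. With array weights the genes at an unadjusted p under 0.05 were 1 among the other nicotinic subunits, 2 among assembly genes, 3 among muscarinic receptors, 4 each among regulators, other Cys-loop receptors and sympathetic and neuronal markers, 2 among glial, 3 among macrophage and blood and 6 among endothelial and epithelial markers. Of these, 1 regulator, 1 Cys-loop receptor, 4 sympathetic and neuronal markers and 1 macrophage and blood marker passed the adjusted threshold. With the replicate block 1 glial marker was at an unadjusted p under 0.05. Among genes of the brighter class it was 1 regulator, 1 sympathetic and neuronal marker and 0 Cys-loop receptors, where Htr3a and Gabra3 are left out by construction. The number of arrays limits the precision.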
